A study of Mus musculus with 8 samples.

Results

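The genes of glycolysis, gluconeogenesis and glycogen turnover, with the enzymes of the pentose phosphate pathway and pyruvate dehydrogenase that lie next to them, were examined as a list of 38 mouse genes in isolated hepatocytes. The members were listed by name and found on the arrays through the accession of each probe. All 38 were found, with 53 probes, among 21368 genes with a named probe. Total RNA of hepatocytes from 4 hCNR1+/+ and 4 hCNR1-/- mice was converted to Cy3-labelled cRNA, and each mouse had 1 Agilent array of 1 colour. These numbers are those of the labels; a figure legend of the study gives fewer mice per genotype, and all 8 labelled arrays were used here. The mice were male, 12 to 14 weeks old and on a standard diet, and no treatment is named for them. The strain was given as CNRO for hCNR1+/+ and as CNRO Alb-Cre for hCNR1-/- mice. In the hCNR1-/- mice a floxed *Cnr1* gene, which encodes the cannabinoid 1 receptor (CB1R), was deleted by Cre under the albumin promoter, which is active in hepatocytes. The controls were littermates of these crosses, and the labels do not say whether they carried floxed alleles. The comparison asks how the transcripts of hepatocytes differ between these genotypes in uninjured mice. The strain labels name Alb-Cre for hCNR1-/- mice only, so the effects of receptor loss and of carrying Cre cannot be told apart.

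Hepatocytes take up glucose through a low-affinity carrier, trap it as glucose 6-phosphate, and either burn it in glycolysis, store it as glycogen or send it through the pentose phosphate pathway, which yields NADPH and ribose. In fasting they run the reverse route, in which pyruvate and lactate are carried through phosphoenolpyruvate to glucose, and release the glucose into the blood. Glucagon, acting through cyclic AMP (cAMP), raises the transcription of gluconeogenic genes and insulin lowers it. CB1R is coupled to an inhibitory G protein that lowers cAMP.

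All 8 arrays lay on 1 slide, with hCNR1+/+ arrays in row 1 and hCNR1-/- arrays in row 2, so that the effects of genotype and of slide row cannot be told apart. The replicate number was also the slide column in both rows, so replicate 4 of each genotype lay in column 4. The 75th percentile of spot intensity ran from 29.3 to 139, and replicate 4 was the dimmest array of both genotypes, with 62.0 in hCNR1+/+ and 29.3 in hCNR1-/- mice. Between 28.6% and 42.3% of spots were well above background, and none was saturated. The single probe of *Cnr1* lacked the flag for signal well above background on all 8 arrays (set on 0 of 4 controls, 0 of 4 knockouts), so on these arrays genotype rests on the labels. The study also measured *Cnr1* mRNA in isolated hepatocytes of both genotypes, and that measurement was not used here. All 12 hepatocyte markers were well above background on all 8 arrays, and their mean log2 signal ran from 8.96 to 9.61 in hCNR1+/+ and 9.15 to 9.66 in hCNR1-/- mice. Of 10 Kupffer cell (liver macrophage) markers, 8 were measured and 5 were well above background on all 8 arrays, with *Timd4* on none. Their mean log2 signal ran from 1.53 to 2.74 in hCNR1+/+ mice, highest in replicate 4, and 0.255 to 1.18 in hCNR1-/- mice, and the log2 fold change was below 0 for all 8. Here and below a log2 signal is relative to the 75th percentile of its own array, and a log2 fold change is hCNR1-/- minus hCNR1+/+, followed by its standard error (SE).

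The log2 fold changes of the listed genes lay on both sides of 0 and shared no single direction. All 38 genes passed the filter on dim probes, which asks that 4 of the 8 arrays or more show the probe clearly over background, and 34 met it on every array. At an adjusted p below 0.05 in limma, 0 of 38 were called, the lowest adjusted p being 0.0515 for *Pck1*, while 144 of 11072 genes tested (1.3%) were called lower and 325 (2.94%) higher. At an unadjusted p below 0.05, 5 members were lower and 3 higher, that is 13.2% and 7.89%, against 6.92% and 14.7% of all genes tested. The same 5 lower members, *Pck1*, *Pdk1*, *Pfkl*, *Pgk1* and *Pdk2*, also differed by more than 2-fold, the threshold used in the study (fold change above 2 and unadjusted p below 0.05), and no member was higher by that threshold. This was 13.2% of the members against 3.75% of all genes tested for lower genes, and 0 of 38 against 4.78% for higher genes. These shares come from the fit used here, which called 415 genes lower and 529 higher by that threshold. The study itself reported many more lower than higher genes, the opposite balance, so the shares are not those of its own calls. The hCNR1-/- arrays lay below all hCNR1+/+ arrays in 4 members (10.5%, against 5.04% of all genes) and above them in 1 (2.63%, against 12.7%).

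Most members differed little. The median log2 fold change of the 38 was -0.06, against 0.08 for all genes tested, with 21 members below and 17 above 0. The median size of the difference, without its sign, was 0.35 against 0.36 for all genes, and 23 members differed by less than 0.5 log2 units. The median SD within a genotype was 0.48 for the members and 0.43 for all genes. The sign of 23 members was the same under all 6 other scalings of the arrays and that of 15 changed under at least 1 of them, most often when the arrays were not scaled at all, which moved the median of all genes to -0.47.

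**Figure D1:**
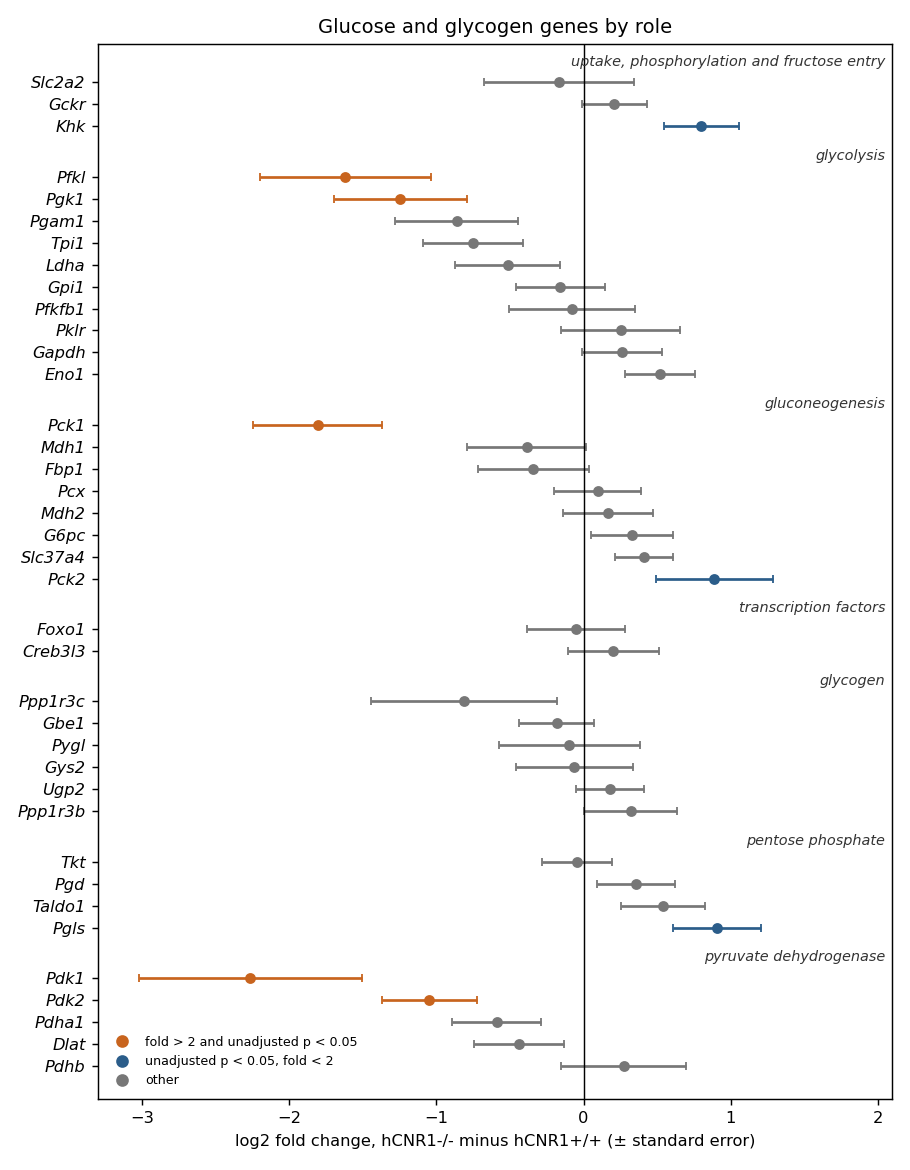
Log2 fold change (hCNR1-/- minus hCNR1+/+, x axis) of the 38 genes, grouped by role (y axis), with the standard error from limma as bars and 4 arrays per genotype. The 5 genes past the study's threshold all lie left of 0, from -1.05 for *Pdk2* to -2.26 for *Pdk1*, while *Khk*, *Pck2* and *Pgls* lie right of 0 with a fold below 2.

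The promoters of the 3 members with the lowest adjusted p, *Pck1* and *Pdk2* (lower in the knockout) and *Khk* (higher), are shown because cAMP and carbohydrate act on transcription of this pathway through short DNA elements. They are RefSeq sequences of GRCm38.p6, the 250 bases before the gene start, read 5′ to 3′ on the strand of the gene, with the motifs found in capitals. *Pck1* lies at chr2:173152823-173153072 on the + strand, *Pdk2* at chr11:95041372-95041621 on the - strand and *Khk* at chr5:30921309-30921558 on the + strand.
Pck1: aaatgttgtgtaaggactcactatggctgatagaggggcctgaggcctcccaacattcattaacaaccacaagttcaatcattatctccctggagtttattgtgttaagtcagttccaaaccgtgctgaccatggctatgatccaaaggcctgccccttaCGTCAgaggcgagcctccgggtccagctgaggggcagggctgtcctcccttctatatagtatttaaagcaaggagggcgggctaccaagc
Pdk2: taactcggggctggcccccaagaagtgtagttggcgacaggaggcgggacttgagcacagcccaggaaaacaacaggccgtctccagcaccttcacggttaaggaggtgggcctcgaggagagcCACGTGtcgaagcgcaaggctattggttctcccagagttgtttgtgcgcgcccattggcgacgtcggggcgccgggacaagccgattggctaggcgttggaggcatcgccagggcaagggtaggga
Khk: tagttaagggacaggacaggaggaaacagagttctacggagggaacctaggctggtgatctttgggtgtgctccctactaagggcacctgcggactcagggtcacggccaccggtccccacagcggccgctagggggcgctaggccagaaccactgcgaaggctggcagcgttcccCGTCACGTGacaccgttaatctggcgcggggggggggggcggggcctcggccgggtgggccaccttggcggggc
The capitals mark TGACG, the core of the cAMP response element, on the other strand at bases 90 to 86 before the *Pck1* start, and the E-box CACGTG, a core of carbohydrate and clock elements, at bases 126 to 121 before the *Pdk2* start. In *Khk* both are present and overlap, TGACG on the other strand at bases 74 to 70 and CACGTG at bases 71 to 66. Over windows from 250 bases before to 50 after the start, searched on both strands, TGACG stood in 20.8% of all 32851 promoters and in 14 of the 51 windows of the members, which belong to 36 genes. CACGTG stood in 7.15% of all promoters and in 5 of the 51, and the forkhead site TGTTTAC in 3.65% and in 0 of the 51. Among the 7 windows of the 5 lower members, 2 held TGACG, 1 CACGTG and 0 TGTTTAC. *Gys2* and *Ppp1r3b* were not matched. A match is a description of the letters and not a bound site.

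Uptake, phosphorylation and entry of fructose were represented by 3 genes, of which none passed the study's threshold. *Khk* encodes ketohexokinase, which phosphorylates fructose on its way into glycolysis. In the order of replicates 1 to 4, as for all genes below, the control arrays gave a log2 signal of 9.08, 9.40, 9.14 and 9.87 and the knockout arrays 10.11, 10.36, 9.74 and 10.49. All knockout arrays but replicate 3 lay above all controls, and the fold change was 0.80 ± 0.26 on the log2 scale (SE, 1.74-fold, adjusted p = 0.109, exact permutation p = 0.0571, n = 4 per genotype). *Slc2a2* encodes GLUT2, the glucose carrier of the hepatocyte surface. It gave 3.31, 4.11, 3.50 and 4.62 in hCNR1+/+ and 4.54, 4.44, 3.66 and 2.25 in hCNR1-/- mice. The groups overlapped widely, the knockout array with the lowest value was replicate 4, and the log2 fold change was -0.16 ± 0.51, changing sign to 0.33 without that array. *Gckr*, which encodes a regulatory protein of glucose phosphorylation, differed by 0.21 ± 0.22.

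Glycolysis held the members with the most uneven control arrays. Of its 10 genes, 7 were below and 3 above 0, with a median log2 fold change of -0.34 and a range from -1.62 to 0.52, and *Pfkl* and *Pgk1* were lower by the study's threshold. *Pfkl* encodes the liver subunit of phosphofructokinase, which commits fructose 6-phosphate to glycolysis. Its arrays gave a log2 signal of 2.17, 2.91, 3.66 and 5.36 in hCNR1+/+ and 2.30, 1.81, 1.90 and 1.60 in hCNR1-/- mice. The knockout arrays were close together, the control arrays spread over more than 3 log2 units with replicate 4 highest, and hCNR1+/+ replicate 1 lay below hCNR1-/- replicate 1. The fold change was -1.62 ± 0.58 (3.07-fold lower, adjusted p = 0.145, exact permutation p = 0.0571), and -1.01 without hCNR1+/+ replicate 4. *Pgk1* encodes phosphoglycerate kinase, the first ATP-yielding step. It gave 7.72, 7.75, 8.12 and 8.53 in hCNR1+/+ and 7.61, 7.14, 7.06 and 5.35 in hCNR1-/- mice, with no overlap but with replicates 1 of both genotypes almost touching. Its fold change was -1.25 ± 0.45 (2.37-fold lower, adjusted p = 0.152, exact permutation p = 0.0286, the smallest that 4 against 4 arrays allow). Without hCNR1-/- replicate 4 it was -0.77 and without hCNR1+/+ replicate 4 it was -1.08, and *Pgk1* no longer passed the study's threshold in either case.

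The other glycolytic genes gave values on both sides of 0, and none of them passed the study's threshold. *Pgam1*, phosphoglycerate mutase, differed by -0.86 ± 0.42, *Tpi1*, triose phosphate isomerase, by -0.75 ± 0.34, and *Ldha*, the lactate dehydrogenase subunit that favours lactate formation, by -0.52 ± 0.36. *Gpi1*, glucose 6-phosphate isomerase, differed by -0.16 ± 0.30. On the other side were *Eno1*, enolase, with 0.52 ± 0.24, *Gapdh*, glyceraldehyde 3-phosphate dehydrogenase, with 0.26 ± 0.27, and *Pklr*, the liver form of pyruvate kinase, with 0.25 ± 0.40. The smallest difference of the group was that of *Pfkfb1*, the liver form of the enzyme that makes and breaks fructose 2,6-bisphosphate. It gave 2.80, 1.87, 1.77 and 0.55 in hCNR1+/+ and 2.16, 1.65, 1.53 and 1.34 in hCNR1-/- mice, with complete overlap and a log2 fold change of -0.08 ± 0.43. Unlike most of its group, *Pfkfb1* was lowest, not highest, in hCNR1+/+ replicate 4. The signs of *Eno1*, *Gapdh* and *Pklr* were not the same under every scaling.

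Probes of 1 gene did not always give 1 sign. Of the 8 members with several probes, 5 had probes of 1 sign and 3 had both. *Gapdh*, with 7 probes, ranged from -0.45 to 0.26, 5 of them below 0, and *Ldha*, with 3 probes, from -0.85 to 0.35. The 2 probes of *Tpi1* gave -0.97 and -0.75. *Gapdh*, *Pgk1*, *Ldha*, *Tpi1*, *Pgam1* and *Eno1* have pseudogenes or close relatives elsewhere in the genome, and a probe may take up their transcripts, so their values are less certain than those of single-copy genes.

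Gluconeogenesis held the member with the lowest adjusted p, *Pck1*, and *Pck2*, which was higher at an unadjusted p of 0.0494 but passed neither threshold. *Pck1* was lower by the study's threshold, 3 of its 8 genes lay below 0 and 5 above, and the median was 0.13. *Pck1* encodes the cytosolic phosphoenolpyruvate carboxykinase, a rate-setting enzyme of glucose synthesis and a classical target of cAMP and of insulin. Its arrays gave a log2 signal of 4.99, 4.46, 5.31 and 6.17 in hCNR1+/+ and 3.01, 4.08, 4.0 and 2.62 in hCNR1-/- mice. Every knockout array lay below every control array, closest between hCNR1-/- replicate 2 and hCNR1+/+ replicate 2. The mean was 5.23 ± 0.72 against 3.43 ± 0.73 (SD, n = 4), a fold change of -1.81 ± 0.44 on the log2 scale (SE, 3.50-fold lower, adjusted p = 0.0515, exact permutation p = 0.0286). Left out in turn, the 8 arrays gave -2.07 to -1.49, and *Pck1* passed the study's threshold each time. Its adjusted p lay just above 0.05 and fell below it under 7 of the other settings that use all arrays alike, for example to 0.0428 over genes well above background on all 8 arrays and to 0.0388 with a mean-variance trend. With single arrays left out, the adjusted p from limma stayed above 0.05, between 0.0510 and 0.142. Over all settings run it rose as high as 0.328. Fewer hepatocytes expressing a gene and less RNA per hepatocyte cannot be told apart in these bulk samples.

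The mitochondrial isoenzyme *Pck2* lay on the other side of 0. Its signal was low, with -1.39, -1.09, -1.44 and -2.61 in the controls and -0.41, -0.24, -0.73 and -1.60 in the knockout, and exceeded background clearly on 3 arrays of each genotype. The groups overlapped at hCNR1-/- replicate 4, and the log2 fold change was 0.89 ± 0.40 (1.85-fold, unadjusted p = 0.0494, adjusted p = 0.23, both from limma). *Pcx*, pyruvate carboxylase, which makes the oxaloacetate that *Pck1* uses, had the smallest difference of the group. It gave 8.11, 8.05, 8.28 and 8.63 in hCNR1+/+ and 7.82, 8.50, 8.06 and 9.07 in hCNR1-/- mice, with a log2 fold change of 0.10 ± 0.29 and complete overlap. *Fbp1*, fructose 1,6-bisphosphatase, differed by -0.34 ± 0.38, and the malate dehydrogenases *Mdh1* (cytosolic) and *Mdh2* (mitochondrial) by -0.39 ± 0.41 and 0.17 ± 0.30. The last step, release of free glucose in the endoplasmic reticulum, is carried out by *G6pc*, the catalytic subunit of glucose 6-phosphatase, and *Slc37a4*, the carrier that brings it its substrate. *G6pc*, like *Pck1* a target of cAMP and insulin, differed by 0.33 ± 0.28 (adjusted p = 0.531) and *Slc37a4* by 0.41 ± 0.20 (adjusted p = 0.264). The difference between the changes of *Pck1* and *G6pc* was not tested.

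Both transcription factors of the list gave values near 0. *Foxo1*, the forkhead factor that insulin signalling removes from the nucleus and that acts on *Pck1* and *G6pc*, gave 3.78, 3.74, 4.10 and 5.05 in hCNR1+/+ and 4.53, 3.87, 4.35 and 3.72 in hCNR1-/- mice (log2 fold change -0.05 ± 0.33). *Creb3l3*, which encodes CREBH, a membrane-bound factor of liver released in fasting and stress of the endoplasmic reticulum, gave 7.64, 7.72, 8.09 and 8.65 in hCNR1+/+ and 7.54, 8.60, 8.39 and 8.38 in hCNR1-/- mice (0.20 ± 0.31). Genotypes overlapped in both genes. These are transcript levels, and both factors are controlled largely by their place in the cell.

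Glycogen genes showed no member past either threshold. Of 6 genes, 4 were below and 2 above 0, with a median of -0.08. *Ppp1r3c* had the largest difference. It encodes a subunit that brings protein phosphatase 1 to glycogen, where the phosphatase activates the synthase. Its arrays gave a log2 signal of -0.50, -0.21, -0.31 and 0.85 in hCNR1+/+ and -1.09, -1.73, -1.81 and 1.21 in hCNR1-/- mice. Replicates 1 to 3 of the knockout lay below all controls and replicate 4 above all of them, so that the log2 fold change of -0.81 ± 0.63 (adjusted p = 0.491) became -1.50 (adjusted p = 0.0314) without hCNR1-/- replicate 4. Leaving out that array raised the calls over all genes tested from 144 lower and 325 higher to 323 and 1121. This rise applies to every adjusted p without that array given below. *Gys2*, the liver glycogen synthase, had the smallest difference. It gave 3.58, 3.76, 3.82 and 4.84 in hCNR1+/+ and 4.23, 4.59, 3.98 and 2.96 in hCNR1-/- mice, with a log2 fold change of -0.06 ± 0.40 and 2 probes of opposite sign. *Pygl*, the liver glycogen phosphorylase that breaks the store down, differed by -0.10 ± 0.48, *Gbe1*, the branching enzyme, by -0.18 ± 0.26, *Ugp2*, which makes UDP-glucose for the synthase, by 0.18 ± 0.23, and *Ppp1r3b*, the main phosphatase subunit of liver, by 0.32 ± 0.32.

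In the pentose phosphate pathway 3 of 4 genes lay above 0, with a median log2 fold change of 0.45, and none passed the study's threshold. *Pgls*, 6-phosphogluconolactonase of the oxidative branch, was the only member whose knockout arrays all lay above the controls. It gave 3.96, 3.94, 4.08 and 3.39 in hCNR1+/+ and 4.90, 4.55, 4.14 and 5.40 in hCNR1-/- mice. The separation rests on hCNR1-/- replicate 3, which lay close above the highest control, and the fold change was 0.91 ± 0.30 (1.88-fold, adjusted p = 0.117, exact permutation p = 0.0286). *Taldo1*, transaldolase of the branch without oxidation, differed by 0.54 ± 0.28 (adjusted p = 0.305), and by 0.81 (adjusted p = 0.0216) without hCNR1-/- replicate 4. *Pgd*, 6-phosphogluconate dehydrogenase, which yields NADPH, differed by 0.36 ± 0.26. *Tkt*, transketolase, gave 7.14, 7.23, 7.39 and 7.44 in hCNR1+/+ and 7.50, 7.57, 7.27 and 6.68 in hCNR1-/- mice, a difference of -0.04 ± 0.24. Without scaling between arrays *Pgd* and *Taldo1* changed sign, to -0.20 and -0.02.

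Pyruvate dehydrogenase turns pyruvate into acetyl-CoA, and its kinases switch it off by phosphorylation. Of the 5 genes of this group 4 lay below 0, and both kinases, *Pdk1* and *Pdk2*, were lower by the study's threshold. *Pdk1* gave 1.42, 1.35, 1.97 and 2.87 in hCNR1+/+ and 0.82, 0.12, 0.55 and -2.93 in hCNR1-/- mice. The groups did not overlap, and the last of these values, from hCNR1-/- replicate 4, was not well above background. The fold change was -2.26 ± 0.76 (4.80-fold lower, adjusted p = 0.125, exact permutation p = 0.0286), and -1.41 (adjusted p = 0.0468) without that array. *Pdk2*, the kinase form abundant in liver, gave 3.55, 3.42, 4.13 and 4.74 in hCNR1+/+ and 2.90, 2.88, 2.52 and 3.35 in hCNR1-/- mice. Here too the groups did not overlap, with hCNR1-/- replicate 4 just below hCNR1+/+ replicate 2. The fold change was -1.05 ± 0.32 (2.07-fold lower, adjusted p = 0.0999, exact permutation p = 0.0286). *Pdk2*, close to 2-fold, fell short of the study's threshold without hCNR1+/+ replicate 3 (-0.99), hCNR1+/+ replicate 4 (-0.79) or hCNR1-/- replicate 3 (-0.92), and had an adjusted p of 0.0469 without hCNR1-/- replicate 4.

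The subunits of the enzyme itself did not pass either threshold. *Pdha1*, the catalytic alpha subunit, differed by -0.59 ± 0.30 (adjusted p = 0.293) and *Dlat*, the acetyltransferase core, by -0.44 ± 0.31 (adjusted p = 0.444). *Pdhb*, the beta subunit, gave 6.86, 6.91, 6.88 and 7.19 in hCNR1+/+ and 7.34, 7.92, 7.84 and 5.81 in hCNR1-/- mice. Replicates 1 to 3 of the knockout lay above all controls and replicate 4 below all of them, so that the difference of 0.27 ± 0.43 became 0.74 (adjusted p = 0.0403) without hCNR1-/- replicate 4.

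**Figure D2:**
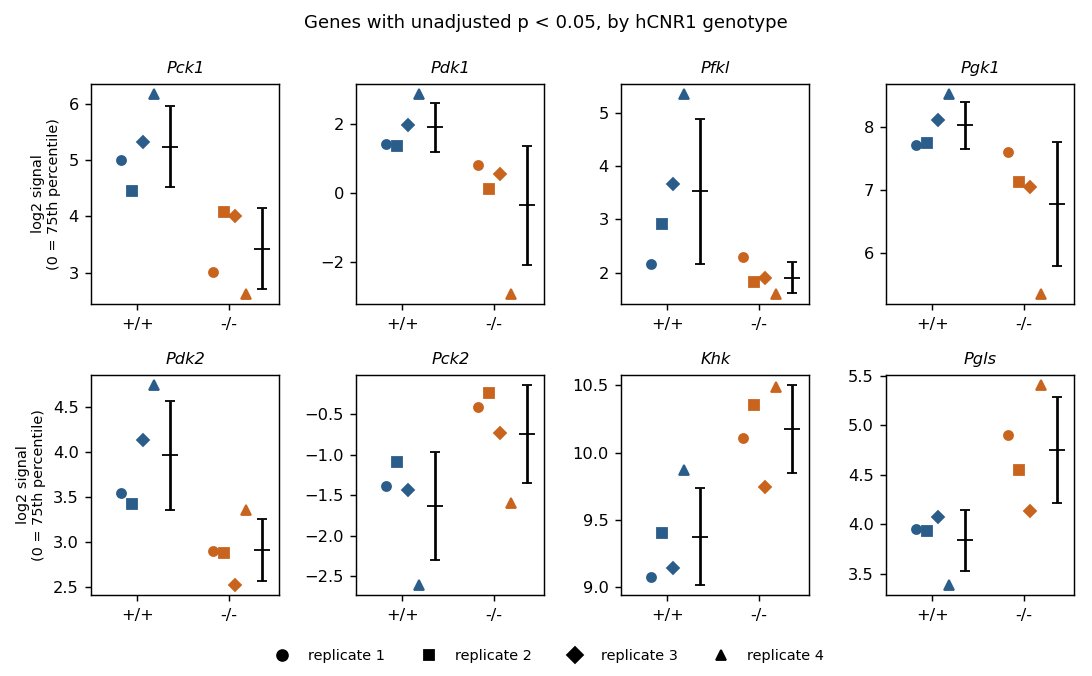
Log2 signal relative to the 75th percentile of each array (y axis) of the 8 members with an unadjusted p below 0.05 in each genotype (x axis). Each symbol is 1 array, its shape gives the replicate number, and bars give mean and SD of 4 arrays. Replicate 4 is the highest hCNR1+/+ array in all 5 lower genes and the lowest hCNR1-/- array in all of them but *Pdk2*.

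Replicate 4 of each genotype carried much of the spread. In 28 of 38 members (73.7%) hCNR1+/+ replicate 4 was the highest control array, against 45.5% of all genes tested, and in glycolysis this held for 8 of 10 genes. In 28 members (73.7%) hCNR1-/- replicate 4 was the lowest knockout array, against 53.3% of all genes. That array had a mean correlation of 0.942 with the other arrays of its genotype, the lowest of the 8. Without both replicates 4, an alternative chosen after the data had been seen, 3 members were lower by the study's threshold (*Pck1* with -1.23, *Pdk1* with -1.09 and *Ppp1r3c* with -1.20) and the median of the members was 0.28 against 0.20 for all genes. In the same comparison 4 members were called lower at an adjusted p below 0.05 (*Pck1*, *Pdk1*, *Pdk2* and *Ppp1r3c*) and 8 higher, among them *G6pc* (0.72, adjusted p = 0.0174), *Khk* (0.86, adjusted p = 0.0242), *Taldo1* (0.74, adjusted p = 0.0178) and *Pygl* (0.68, adjusted p = 0.0455). Over all genes tested this comparison called 480 lower and 1701 higher at an adjusted p below 0.05. By the study's threshold it called 311 of 11072 genes lower and 539 higher.

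**Figure D3:**
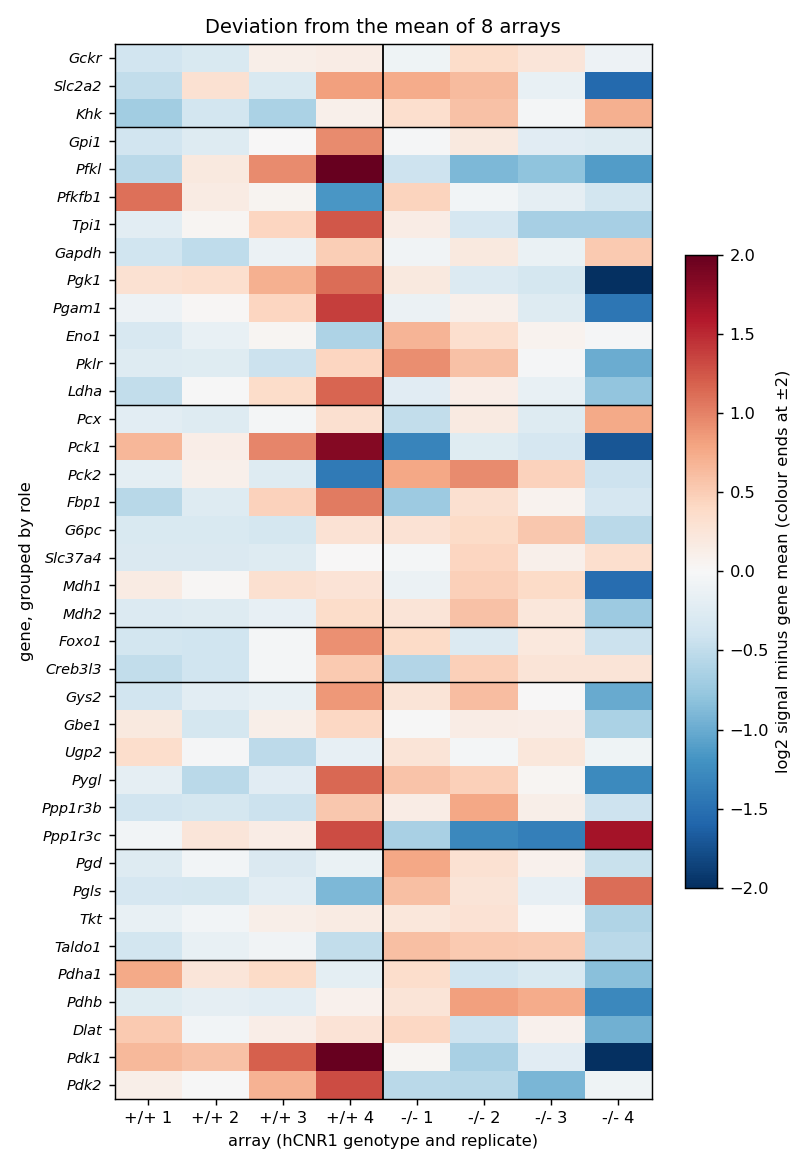
Deviation of each array (x axis, genotype and replicate) from the mean of its gene over 8 arrays, for the 38 members in the order of their roles (y axis, lines between roles), in log2 units with the colour ending at 2 in each direction. The column of hCNR1+/+ replicate 4 is mostly red and that of hCNR1-/- replicate 4 mostly blue, while replicates 1 to 3 of both genotypes are paler.

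The other genes of the same pathways were counted from a list of 80, of which 62 were tested. At an adjusted p below 0.05, 0 were called, the lowest being 0.0523 for *Phka2*. At an unadjusted p below 0.05 in limma, 10 of the 62 were lower and 7 higher, against 6.92% and 14.7% of all genes tested. By the study's threshold 5 were lower (8.06%, against 3.75% of all genes) and 1 of 62 higher (against 4.78% of all genes). The median log2 fold change was -0.12, with 38 below and 24 above 0. *Hk1*, a hexokinase of high affinity, gave -0.61, 0.29, 1.01 and 3.0 in hCNR1+/+ and -1.61, -1.16, -2.10 and -1.57 in hCNR1-/- mice (log2 fold change -2.53 ± 0.65, adjusted p = 0.0605). *Pfkp*, the platelet-type phosphofructokinase, gave 0.23, 0.77, 1.74 and 3.66 against -0.95, -0.26, -1.94 and -0.66, a log2 fold change of -2.55 ± 0.68 (adjusted p = 0.0676). *Pkm*, the pyruvate kinase of muscle and of dividing cells, gave 3.33, 4.24, 4.82 and 6.20 against 3.28, 3.07, 2.97 and 2.55, a log2 fold change of -1.68 ± 0.52 (adjusted p = 0.101). These genes did not overlap between genotypes. Of the 62, 4 lay wholly lower and 6 wholly higher in the knockout, against 5.04% and 12.7% of all genes tested. *Slc2a1*, which encodes the glucose carrier GLUT1, differed by -1.08 ± 0.46 and *Gys1*, the glycogen synthase of muscle, by -1.25 ± 0.45, both with overlap. The gene that was higher by the study's threshold was *Rpe*, the epimerase of the pentose phosphate pathway, with 1.87 ± 0.64 (adjusted p = 0.131). Its signal exceeded background clearly on 3 of the 4 control arrays and was lowest, at -4.03, on hCNR1+/+ replicate 4. After normexp background correction the log2 fold change of *Rpe* was 0.59, that of *Gys1* -0.94, that of *Hk1* -1.10 and that of *Pfkp* -1.62, so *Rpe* and *Gys1* were then under 2-fold.

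In *Hk1*, *Pfkp*, *Pkm*, *Slc2a1* and *Gys1*, as in *Pfkl*, hCNR1+/+ replicate 1 was the lowest and hCNR1+/+ replicate 4 the highest control array. Over all genes tested, replicate 1 was the lowest control in 24.7% and replicate 4 the highest in 45.5%. Replicate 4 was also the control array with the highest mean log2 signal of the Kupffer cell markers (2.74) and of the 7 measured endothelial markers (1.22, against 0.297 to 0.678 in the other controls). It was the highest control for the 12 hepatocyte markers as well (9.61, against 8.96 to 9.18), and for the few measured markers of lymphocytes, stellate cells and cholangiocytes. It was not the highest for the measured neutrophil marker (7.38, against 7.56 in replicate 2) or erythroid marker (4.74, against 4.77 in replicate 3). Without hCNR1+/+ replicate 4 the log2 fold changes were -1.84 for *Hk1*, -1.86 for *Pfkp*, -1.16 for *Pkm*, -0.60 for *Slc2a1* and -0.77 for *Gys1*, the last 2 no longer past the study's threshold, and 1.16 for *Rpe*. *Slc2a1* also failed it without hCNR1+/+ replicate 3 (-1.11) and without hCNR1-/- replicate 1 (-0.95), replicate 3 (-1.06) or replicate 4 (-1.09). Without both replicates 4, 4 of the 6 genes passed it. The 8 measured Kupffer cell markers had a median log2 fold change of -1.23, and 2 of them were called at an adjusted p below 0.05. Their part in the values of these genes was not tested.

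Of the forms that mark hepatocytes, *Pklr* differed by 0.25 ± 0.40, *Gys2* by -0.06 ± 0.40, *Pygl* by -0.10 ± 0.48 and *Slc2a2* by -0.16 ± 0.51, against -1.62 ± 0.58 for *Pfkl*. *Pfkm*, the muscle form of the enzyme that *Pfkl* encodes, differed by -0.72 ± 0.22 with no overlap (adjusted p = 0.102). Among the kinases of pyruvate dehydrogenase, *Pdk4*, the form raised by fasting, differed by -0.28 ± 0.32. Differences between forms of 1 enzyme were not tested.

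**Figure D4:**
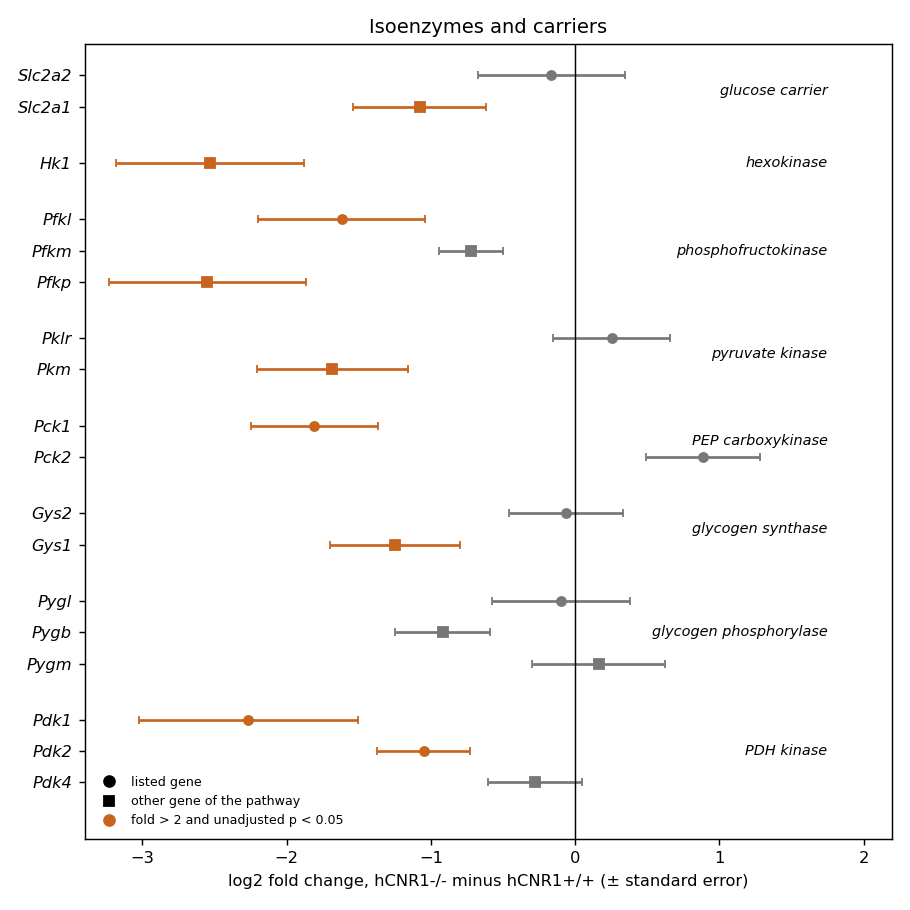
Log2 fold change (hCNR1-/- minus hCNR1+/+, x axis) with standard error for forms of the same enzyme or carrier (y axis), as circles for the 38 listed genes and squares for other genes of the pathways, 4 arrays per genotype. *Hk1*, *Pfkp*, *Pkm*, *Slc2a1* and *Gys1* lie left of -1, and the liver forms *Pklr*, *Slc2a2* and *Gys2* lie between -0.16 and 0.25, with *Pfkl* at -1.62.

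The values of the 5 lower members held to different degrees when the processing was changed. *Pck1* passed the study's threshold under all 25 settings run, with log2 fold changes from -2.36 to -1.23, and *Pdk1* under all 24 in which it was tested, from -2.82 to -1.09. *Pfkl* passed under 24 of 25, from -2.17 to -0.91, failing without both replicates 4. *Pdk2* passed under 21 of 25, from -1.60 to -0.79, and *Pgk1* under 20 of 25, from -1.80 to -0.60. All 5 were lower in the knockout under every setting in which they were tested.

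**Figure D5:**
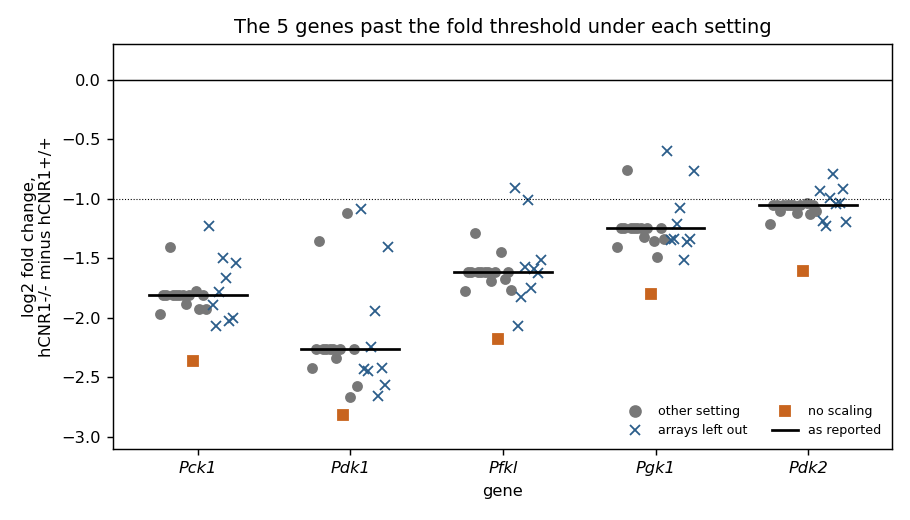
Log2 fold change (hCNR1-/- minus hCNR1+/+, y axis) of the 5 members past the study's threshold (x axis) as reported (line), with arrays left out (crosses), without scaling (squares) and under the other settings (circles). The dotted line marks a 2-fold lower signal. All points lie below 0, and *Pgk1* and *Pdk2* cross the dotted line when single arrays are left out.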

How the data were processed

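Isolated hepatocytes of 4 hCNR1+/+ and 4 hCNR1-/- mice were measured on 1-colour Agilent arrays, and groups were taken from the labels. The deposited files hold spot intensity from Feature Extraction 12.0.3.1, with background corrected inside each array and no scaling across arrays. The deposited value table holds 1 score per spot, equal within 0.005 to the z-score of log2 intensity on all 8 arrays, and served here as an alternative. The scaling and test applied to the arrays are not given in the sources used here.

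Each array's log2 intensities were centred on its own 75th percentile over 59305 non-control spots. Outlier-flagged spots were dropped, and a probe's remaining spots averaged. The flag for signal well above background had to be set on at least 50% of a probe's spots. Probes were named through their accession, without version, from the RefSeq annotation of GRCm38.p6 (28331 of 55681 probes, 21368 genes), while the arrays were designed on an older build. Tested were genes whose probe passed this on at least 4 of 8 arrays, each by its brightest probe, with lmFit and eBayes of limma 3.58.1 in R 4.3.3 (two-sided), with Benjamini-Hochberg adjustment over 11072 genes. A second call was the study's threshold, more than 2-fold with unadjusted p below 0.05. Single genes had an exact two-sided permutation test over 70 assignments of arrays, with a smallest p of 0.0286. The fit was tested on simulated data. The number of arrays limits the precision.

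The members, lists and tests were chosen with earlier results of these data known. Array values are given for members past a threshold and for the largest and smallest difference of each role, and other members by log2 fold change. Other pathway genes were to be named by the same thresholds; *Phka2*, *Pfkm* and *Pdk4* were named after their values had been seen. Some genes of that list are counted and not reported singly here. Few markers of other cells passed the filter; the median log2 fold change was -0.91 for stellate cells (1 of 8 markers), 0.68 for lymphocytes (2 of 8), -0.80 for neutrophils (1 of 5), -0.15 for cholangiocytes (2 of 5) and -0.08 for erythroid cells (1 of 4), and -0.18 for endothelial cells (7 of 8). Alternatives were other scalings, background corrections, filters, probe choices and variance models, array weights, a replicate block, and arrays left out. The normexp alternative (offset 50) used median spot signals.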

Additional observations from a re-analysis of the deposited data

Results flagged for a closer look

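In 6 of the 76 sets of 4 arrays (38 genes in each genotype) 1 array lay far from the other arrays of its genotype by Dixon's ratio of gap to range, above its critical value. Chance gives about 1 set in 20 where sets are independent, but these 76 come from the same 8 arrays. The share of such sets over all genes tested is not given here. In 5 of the 6 the array was hCNR1+/+ replicate 4. It gave a log2 signal of 6.98 for *G6pc*, against 6.34 to 6.38 in the other controls, 8.32 for *Slc37a4* (8.02 to 8.04), 9.01 for *Mdh2* (8.37 to 8.48), 8.55 for *Ppp1r3b* (7.59 to 7.66) and 7.19 for *Pdhb* (6.86 to 6.91). In the knockout, replicate 4 gave 7.48 for *Taldo1*, against 8.52 to 8.62 in the others. Both arrays were the dimmest of their genotype, with a 75th percentile of intensity of 62.0 and 29.3, and the part of signal strength in these values was not tested.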

How the results depend on the processing

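At an adjusted p below 0.05, 0 members were called lower and 0 higher. *Pck1* alone was called lower (1 member) under quantile normalization, the 75th percentile over bright probes, both stricter filters, each probe on its own, and eBayes with trend, also when robust. Array weights called 6 lower and 9 higher, and leaving out both replicates 4 called 4 lower and 8 higher. Leaving out 1 array at a time gave 0 to 3 lower and 0 to 2 higher. Only hCNR1-/- replicate 4 changed the count, to *Pdk1*, *Pdk2* and *Ppp1r3c* lower and *Pdhb* and *Taldo1* higher. Over all genes tested its omission called 323 lower and 1121 higher, against 144 and 325 with all arrays. By the study's threshold 5 members were lower, 3 without both replicates 4, and 3 to 6 with 1 array left out (3 without hCNR1+/+ replicate 4); none was higher, but 1 was without hCNR1+/+ replicate 2, hCNR1-/- replicate 3 or hCNR1-/- replicate 4, a range of 0 to 1. The other settings gave 4 to 7 lower and 0 higher. Without both replicates 4 the same threshold called 311 lower and 539 higher over all genes tested. The median of the members, -0.06, was -0.61 without scaling, when that of all genes was -0.47, and lay between -0.16 and 0.19 with 1 array left out, above 0 without either replicate 4. The log2 fold change of *Pygl*, -0.10, reversed to 0.68 without both replicates 4. The causes were not tested. The replicate number was also the slide column. With it as a block, 0 members were called at an adjusted p below 0.05 and 5 were lower by the study's threshold. Same-numbered arrays deviated together with correlations of 0.21, -0.16, -0.05 and 0.02. Of the 8 arrays, 2 correlated best with their own number, so the numbers were not taken to pair the mice. Over all genes, calls at an adjusted p below 0.05 (144 lower, 325 higher) ran from 0 and 0 with the block to 646 and 2176 with array weights, and calls by the study's threshold (415 and 529) were 630 and 87 without scaling, 640 and 358 over bright probes, 453 and 450 after quantile normalization, and 107 and 146 after normexp. Dim probes limit *Pck2*, *Pdk1*, *Pklr* and *Dlat*, which were not well above background on every array.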
